A study of Homo sapiens with 16 samples.

Results

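AKR1 reductases are aldo-keto reductases, soluble enzymes that use NADPH to reduce carbonyl groups on steroids, prostaglandins, retinal and reactive aldehydes, and HSD3B1 is a steroid dehydrogenase and isomerase. The 6 genes listed were AKR1B1, AKR1B10, AKR1C1, AKR1C2, AKR1C3 and HSD3B1. Their members were every probe set of the array that the platform annotation assigns to 1 of these symbols and to no other gene. That rule found 12 probe sets for 5 of the 6 genes, out of 19775 genes with such a probe set. AKR1C1 had 5, AKR1C2 had 3, HSD3B1 had 2, and AKR1C3 and AKR1B10 had 1 each. AKR1B1, with 0 probe sets in that annotation, was not analysed here. The genes were proposed because of how they differed between these groups, so their differences are given as a description, without p-values.

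The 16 arrays measured total RNA from SW480, a human colorectal cancer cell line with a truncated APC gene and active beta-catenin signalling. There were 4 arrays, lettered A to D, in each of 4 groups. The siTAZ cells stably carried an empty vector and were transfected with an siRNA against TAZ (gene WWTR1), a transcriptional coactivator that partners TEAD factors. The sibcat cells carried the same empty vector and received an siRNA against beta-catenin, encoded by CTNNB1, which carries the Wnt signal to the nucleus. The APC cells carried, also stably, a vector for wild-type APC, together with the control siRNA. The siGFP cells, the control, carried the empty vector and received the control siRNA. All 4 groups were therefore transfected with an siRNA, and all grew in serum-containing medium supplemented with insulin, hydrocortisone and 1-thyoglicerol (as the labels spell it). Each target had 1 siRNA condition, and the labels do not say whether the APC cells are 1 clone. The study's stated topic is the role of TAZ in the Wnt response.

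HSD3B1 converts pregnenolone to progesterone and dehydroepiandrosterone to androstenedione, and is known mainly from placenta and skin, while its paralog HSD3B2 serves the adrenal gland and gonads. AKR1C3 reduces androstenedione to testosterone and prostaglandin D to an F-type prostaglandin. AKR1C1 inactivates progesterone and AKR1C2 inactivates dihydrotestosterone. AKR1B10, at home in the intestinal epithelium, reduces retinal and dietary aldehydes, and AKR1B1 is aldose reductase of the polyol pathway. In human cells AKR1B10 and the AKR1C genes are known targets of NRF2, the transcription factor of the antioxidant response, which its partner KEAP1 holds in check. The AKR1C genes lie side by side and are very alike in sequence, which bears on what a probe set of 1 of them can measure.

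In the GRCh38.p14 assembly, RefSeq places AKR1C1 at chr10:4963415-4983283, AKR1C2 at chr10:4987775-5018000 and AKR1C3 at chr10:5048781-5107686. AKR1B10 lies at chr7:134527567-134541412 and HSD3B1 at chr1:119507203-119515058. RefSeq promoter windows, 250 bases before to 50 after a start site, were at hand for 4 of the 5 measured genes, in 6 windows. They are shown because AKR1C3 and HSD3B1 had the largest differences and because the AKR1C windows show how alike these genes are. Capitals mark the matches to 5 searched motifs: TGACNNNGC (core of the antioxidant response element), GGAATG (TEAD), CTTTGAT (TCF/LEF), TGANTCA (AP-1) and CCAAT (the CCAAT box), each searched on both strands. The windows are AKR1C1 (chr10:4963165-4963464, plus strand), AKR1C2 (chr10:5003808-5004107, minus strand), 2 start sites of AKR1C3 (chr10:5048531-5048830 and chr10:5094164-5094463, both plus strand) and HSD3B1 (chr1:119506953-119507252, plus strand).
AKR1C1: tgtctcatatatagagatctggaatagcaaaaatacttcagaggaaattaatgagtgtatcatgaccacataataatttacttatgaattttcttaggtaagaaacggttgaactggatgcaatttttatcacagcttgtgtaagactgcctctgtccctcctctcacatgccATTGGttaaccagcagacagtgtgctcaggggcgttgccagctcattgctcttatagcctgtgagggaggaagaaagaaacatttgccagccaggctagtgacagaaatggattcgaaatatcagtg
AKR1C2: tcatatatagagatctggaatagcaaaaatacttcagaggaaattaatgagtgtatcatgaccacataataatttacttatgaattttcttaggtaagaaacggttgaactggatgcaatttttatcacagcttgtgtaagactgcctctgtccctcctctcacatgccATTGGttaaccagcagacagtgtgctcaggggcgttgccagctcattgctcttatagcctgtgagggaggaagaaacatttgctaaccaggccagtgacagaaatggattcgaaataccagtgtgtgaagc
AKR1C3 start site 1: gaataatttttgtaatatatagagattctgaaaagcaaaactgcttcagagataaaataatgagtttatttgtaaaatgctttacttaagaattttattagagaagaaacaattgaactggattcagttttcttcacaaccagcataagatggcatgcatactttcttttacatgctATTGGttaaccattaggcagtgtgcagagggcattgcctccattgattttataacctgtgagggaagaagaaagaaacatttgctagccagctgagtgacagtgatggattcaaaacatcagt
AKR1C3 start site 2: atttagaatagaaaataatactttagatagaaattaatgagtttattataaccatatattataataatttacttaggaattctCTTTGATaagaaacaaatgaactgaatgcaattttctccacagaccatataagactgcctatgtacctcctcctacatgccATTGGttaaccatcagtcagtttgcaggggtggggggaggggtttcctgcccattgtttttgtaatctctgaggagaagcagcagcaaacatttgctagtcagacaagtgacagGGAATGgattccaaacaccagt
HSD3B1: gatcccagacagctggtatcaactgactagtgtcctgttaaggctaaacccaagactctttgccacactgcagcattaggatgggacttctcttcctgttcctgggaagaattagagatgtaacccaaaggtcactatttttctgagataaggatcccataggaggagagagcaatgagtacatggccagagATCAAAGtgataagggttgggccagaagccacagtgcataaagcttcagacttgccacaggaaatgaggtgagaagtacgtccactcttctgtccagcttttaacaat

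The windows of AKR1C1 and AKR1C2 were nearly the same sequence, with 288 identical bases of 292 aligned (98.6%). AKR1C1 shared 80.9% and 79.9% of aligned bases with the 2 AKR1C3 windows. All 4 AKR1C windows held a CCAAT box on the reverse strand (printed as ATTGG) between 73 and 86 bases before the start site. The second AKR1C3 window also held a TCF/LEF match 167 bases before the start and a TEAD match 29 bases after it. The HSD3B1 window held a TCF/LEF match on the reverse strand, printed as ATCAAAG, 58 bases before the start, and the other HSD3B1 window overlaps this one. The letters of the antioxidant response core and of AP-1 were in none of these 6 windows. Of all 35116 promoter windows of this length, 34.6% held a CCAAT match, 14% a TEAD match, 2.62% a TCF/LEF match, 13.3% an antioxidant response core and 7.71% an AP-1 match. A match describes letters only and says nothing of binding.

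The siRNAs lowered their targets on the arrays. WWTR1 averaged 6.90 in siTAZ cells and 10.28 in siGFP cells on the log2 scale (difference -3.37, SE 0.08, limma adjusted p = 1.66e-14). This probe set, the brightest of WWTR1, was called higher by 0.70 in sibcat (limma adjusted p = 1.81e-06) and 0.73 in APC cells (1.17e-06). Another WWTR1 probe set was also called higher in these groups, by 0.52 and 0.84. A further one differed by -0.22 and 0.07 and was not called. CTNNB1 averaged 10.16 in sibcat cells and 13.12 in siGFP cells (difference -2.96, SE 0.11, limma adjusted p = 3.14e-12). This probe set was the brightest of CTNNB1, and the others differed in sibcat cells by -3.22 and -0.40, both called lower. In APC cells the brightest differed by -0.38 and was called lower (limma adjusted p = 0.0183). The other CTNNB1 probe sets differed there by -0.58 (called lower) and -0.51 (not called). In siTAZ cells the brightest differed by 0.20 (not called), and the others by 0.40 (called higher) and 0.07 (not called). The brightest APC probe set differed by 0.08 in APC cells (SE 0.14, not called, and -0.07 without siGFP array B). Others differed by 0.40 and 1.11 and were called higher, and the remaining ones by -0.0 and 0.14 and were not called. In sibcat cells the APC probe sets at 0.40 and -0.0 differed by -0.39 and -0.32 and were called lower. The other APC probe sets were not called there. Of 10 epithelial and intestinal markers, 8 stood at or above the median probe set level of 5.10 in every group. In siTAZ cells 1 of these 10 was called higher and 2 lower, in sibcat cells 2 higher and 1 lower (2 lower without siGFP array B), and in APC cells 0 higher and 5 lower. The largest differences were -1.13 for the cadherin gene CDH1 in siTAZ cells (limma adjusted p = 1.62e-08), and 1.02 for VIL1 (2.71e-07) and -0.97 for CDX2 (6.96e-09) in sibcat cells. Their summed linear level ran from 35600 to 36900 in siTAZ, 38900 to 39500 in sibcat, 32800 to 34100 in APC and 39000 to 40300 in siGFP arrays, and the part of these shifts in the members' differences was not tested. The 9 measured markers of fibroblasts, endothelium and leukocytes had group medians between 4.65 and 4.87, with 3 or 4 of them at or above 5.10 in a group, and their summed linear level ran from 303 to 328 in siTAZ, 324 to 342 in sibcat, 330 to 348 in APC and 314 to 393 in siGFP arrays. The gap between the 3' and 5' ACTB control probe sets, a sign of RNA quality, was 2.56 ± 0.39 in siTAZ, 2.30 ± 0.24 in sibcat, 2.08 ± 0.32 in APC and 2.05 ± 0.16 in siGFP arrays (SD, n = 4). The exact two-sided permutation p against siGFP was 0.0571, 0.171 and 0.914, adjusted over the 3 comparisons to 0.171, 0.257 and 0.914. The siGFP array B stood farthest from its group's mean (SD over probe sets 0.186, against 0.119 to 0.144 for the other 15). Values without it are given for HSD3B1, AKR1B10, the dim AKR1C2 probe set and NFE2L2, and where the call of another member or a called count of a gene list changed by at least 2-fold.

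HSD3B1 mRNA was higher in both siRNA groups, more so with the siRNA against beta-catenin, and was not called changed in APC cells. All values are log2 levels, so a difference of 1 is a doubling. The probe set 204515_at read 6.11, 6.03, 5.98 and 6.13 in siTAZ arrays A to D, 7.18, 6.94, 7.14 and 7.21 in sibcat arrays, 3.74, 4.36, 4.21 and 4.07 in APC arrays, and 4.17, 4.79, 4.23 and 4.29 in siGFP arrays. Every sibcat array lay above every siTAZ array, every siTAZ array above every siGFP array, and the APC and siGFP arrays overlapped. In RNA of whole cultures, more expressing cells and more RNA per cell cannot be told apart. The difference from siGFP was 1.69 in siTAZ cells (SE 0.13, 3.23-fold), 2.75 in sibcat cells (SE 0.13, 6.72-fold) and -0.28 in APC cells (SE 0.13, not called). HSD3B1 ranked 9th from the top among 19775 genes by its difference in sibcat cells, and 25th in siTAZ cells. Without siGFP array B the differences were 1.83, 2.89 and -0.14 in siTAZ, sibcat and APC cells.

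The APC and siGFP means of HSD3B1, 4.10 and 4.37, fell short of the median level of all probe sets, 5.10, where signal may be largely background, so the sizes of these differences are uncertain. The other HSD3B1 probe set, 241111_at, ran between 2.60 and 3.17 over all 16 arrays. Its differences were 0.12 in siTAZ, 0.19 in sibcat and 0.15 in APC cells (SE 0.11 each), and none of the 3 was called. The probe sets of this gene thus disagreed, 1 of them being dim in every group. Without siGFP array B the differences of 241111_at were 0.22 in siTAZ, 0.30 in sibcat and 0.26 in APC cells, and only the sibcat difference was called.

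Beside HSD3B1, 7 liver and adrenal markers were read. They include no marker of placenta or skin, where HSD3B1 is mainly known. Of these, TTR and SERPINA1 stood above 5.10, and the adrenal genes CYP11B1, MC2R and NR5A1 did not. The summed linear level of the list ran from 2430 to 3460 in siTAZ, 4310 to 5490 in sibcat, 1800 to 2140 in APC and 1980 to 2410 in siGFP arrays. SERPINA1, which encodes the secreted protease inhibitor alpha-1-antitrypsin, differed by 0.42 in siTAZ (limma adjusted p = 0.0126), 1.22 in sibcat (2.9e-07) and -0.15 in APC cells (0.392). It was the brightest of the list in every group and its only called gene. The part of such a shift in the HSD3B1 result was not tested.

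**Figure D1:**
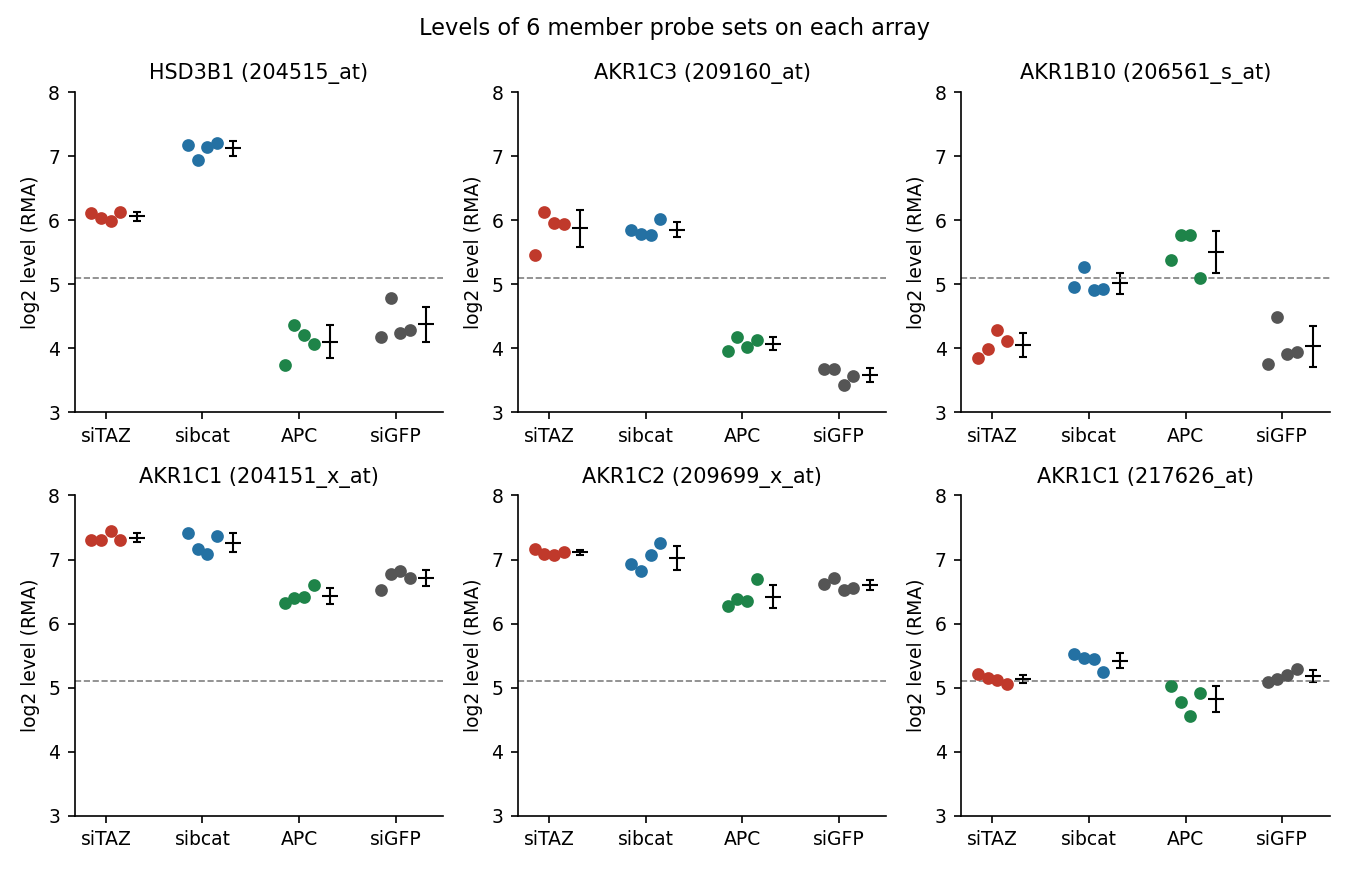
Log2 level on each array (points), with the group mean and SD beside them, for 6 probe sets in siTAZ, sibcat, APC and siGFP cells, 4 arrays each; the dashed line is the median probe set level of 5.10. HSD3B1 and AKR1C3 are high in siTAZ and sibcat cells, AKR1B10 in APC and sibcat cells, and the AKR1C1 and AKR1C2 probe sets move within a narrower range.

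AKR1C3 mRNA was higher in both siRNA groups, to a like level, and slightly higher in APC cells. The probe set 209160_at read 5.45, 6.13, 5.96 and 5.94 in siTAZ arrays A to D, 5.85, 5.78, 5.76 and 6.02 in sibcat arrays, 3.96, 4.17, 4.01 and 4.13 in APC arrays, and 3.67, 3.67, 3.43 and 3.57 in siGFP arrays. The siTAZ and sibcat arrays overlapped and lay above all APC arrays, which lay above all siGFP arrays. The difference from siGFP was 2.29 in siTAZ cells (4.87-fold), 2.27 in sibcat cells (4.81-fold) and 0.48 in APC cells (1.40-fold), each with an SE of 0.11. By this difference AKR1C3 ranked 6th of 19775 genes in siTAZ cells, 24th in sibcat cells and 1007th in APC cells. The APC and siGFP means, 4.07 and 3.58, lay below 5.10, so these sizes are uncertain.

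AKR1C3 was the gene with the widest gap between siTAZ and siGFP cells among the members, while HSD3B1 had it in sibcat cells. Within replicates A and B alone the AKR1C3 difference was 2.12 in siTAZ, 2.15 in sibcat and 0.40 in APC cells, the last no longer called. Within C and D alone it was 2.45, 2.39 and 0.57 in the same groups. With the ACTB gap of each array as a covariate, the siTAZ difference was 2.42.

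The 4 probe sets of AKR1C1 and AKR1C2 named _x_at, a suffix that marks probes also matching other sequences, were higher in both siRNA groups by a smaller amount. Their differences ran from 0.32 to 0.64 in siTAZ cells and from 0.42 to 0.69 in sibcat cells, and all 4 were called higher in each, beside 10.5% and 13.4% of all probe sets called higher in siTAZ and sibcat cells. In APC cells they ran from -0.28 to -0.03, with 1 called lower, beside 11.3% of all probe sets. A signal of AKR1C3 in these probe sets, or of AKR1C1 in those of AKR1C2, cannot be told apart from a change of the named gene, since no probe sequences were used here. A further probe set, 1555854_at, is annotated to both AKR1C1 and AKR1C2 and was left out.

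AKR1C1 itself was read by 5 probe sets that did not move together. The brightest, 204151_x_at, read 7.31, 7.31, 7.45 and 7.30 in siTAZ arrays, 7.41, 7.17, 7.09 and 7.37 in sibcat arrays, 6.32, 6.40, 6.41 and 6.60 in APC arrays, and 6.53, 6.77, 6.82 and 6.71 in siGFP arrays. The siTAZ and sibcat arrays overlapped each other and lay above all siGFP arrays, which overlapped the APC arrays. The difference from siGFP was 0.64 in siTAZ (1.55-fold), 0.55 in sibcat (1.47-fold) and -0.28 in APC cells (1.21-fold lower), each with an SE of 0.09. The APC call was lost without any 1 of siGFP arrays B, C and D or APC arrays A, B and C, where the difference ran from -0.27 to -0.24.

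The AKR1C1 probe set 217626_at, whose name carries no such suffix, did not show the rise in siTAZ cells. It read 5.21, 5.15, 5.12 and 5.06 in siTAZ arrays, 5.53, 5.47, 5.45 and 5.25 in sibcat arrays, 5.03, 4.78, 4.56 and 4.91 in APC arrays, and 5.09, 5.14, 5.19 and 5.29 in siGFP arrays. Only the APC arrays lay apart from the siGFP arrays, all of them below. Its differences were -0.04 in siTAZ cells (not called), 0.25 in sibcat cells (not called) and -0.36 in APC cells (called lower), each with an SE of 0.09. Its APC mean, 4.82, lay below 5.10, so the size of that fall is uncertain. The sibcat difference was called without siGFP array D (0.28) and without sibcat array D (0.31). The APC difference was -0.21 and not called within replicates A and B alone.

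Of the remaining AKR1C1 probe sets, 216594_x_at differed by 0.32 in siTAZ, 0.50 in sibcat and -0.17 in APC cells (SE 0.08), with the first 2 called higher. The dim 1555855_at differed by -0.06, -0.09 and -0.24 in the same order (SE 0.11), with none called, but the APC difference was called lower with the replicate letter as a block. The probe set 1555856_s_at differed by -0.21, -0.14 and -0.30 (SE 0.11), with none called and all group means below 5.10. Without APC array B its APC difference was -0.40 and was called lower.

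AKR1C2 was higher in both siRNA groups in its brighter probe sets. The brightest, 209699_x_at, read 7.17, 7.08, 7.07 and 7.11 in siTAZ arrays, 6.93, 6.82, 7.07 and 7.26 in sibcat arrays, 6.27, 6.38, 6.35 and 6.69 in APC arrays, and 6.62, 6.71, 6.52 and 6.56 in siGFP arrays. Both siRNA groups lay above all siGFP arrays, and the APC arrays overlapped them. The differences were 0.51 in siTAZ, 0.42 in sibcat and -0.18 in APC cells (SE 0.10), with the first 2 called higher. Within replicates A and B alone the sibcat difference was 0.21 and was not called. Without APC array D the APC difference was -0.27 and was called lower. The probe set 211653_x_at differed by 0.57, 0.69 and -0.03 in the same order (SE 0.09), again with the first 2 called higher, and the APC difference was 0.03 without siGFP array B. The dim probe set 244266_at, with group means between 3.04 and 3.35, differed by -0.17, -0.14 and 0.14 (SE 0.10), with none called. They were -0.11, -0.08 and 0.20 without siGFP array B.

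AKR1B10 had another order of groups, with APC cells highest and siTAZ cells at the siGFP level. The probe set 206561_s_at read 3.84, 3.99, 4.28 and 4.11 in siTAZ arrays, 4.95, 5.26, 4.91 and 4.92 in sibcat arrays, 5.37, 5.77, 5.76 and 5.09 in APC arrays, and 3.76, 4.49, 3.91 and 3.94 in siGFP arrays. The APC and sibcat arrays overlapped each other and lay above every siTAZ and siGFP array, which also overlapped. The difference from siGFP was 0.03 in siTAZ cells (not called), 0.98 in sibcat cells (1.98-fold) and 1.47 in APC cells (2.78-fold), each with an SE of 0.16. Without siGFP array B, the highest of its group, the differences were 0.18, 1.14 and 1.63. Only the APC mean, 5.50, lay above 5.10, so these sizes are uncertain. The _s_at suffix marks probes shared between transcripts, and a signal from a related transcript was not tested.

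**Figure D2:**
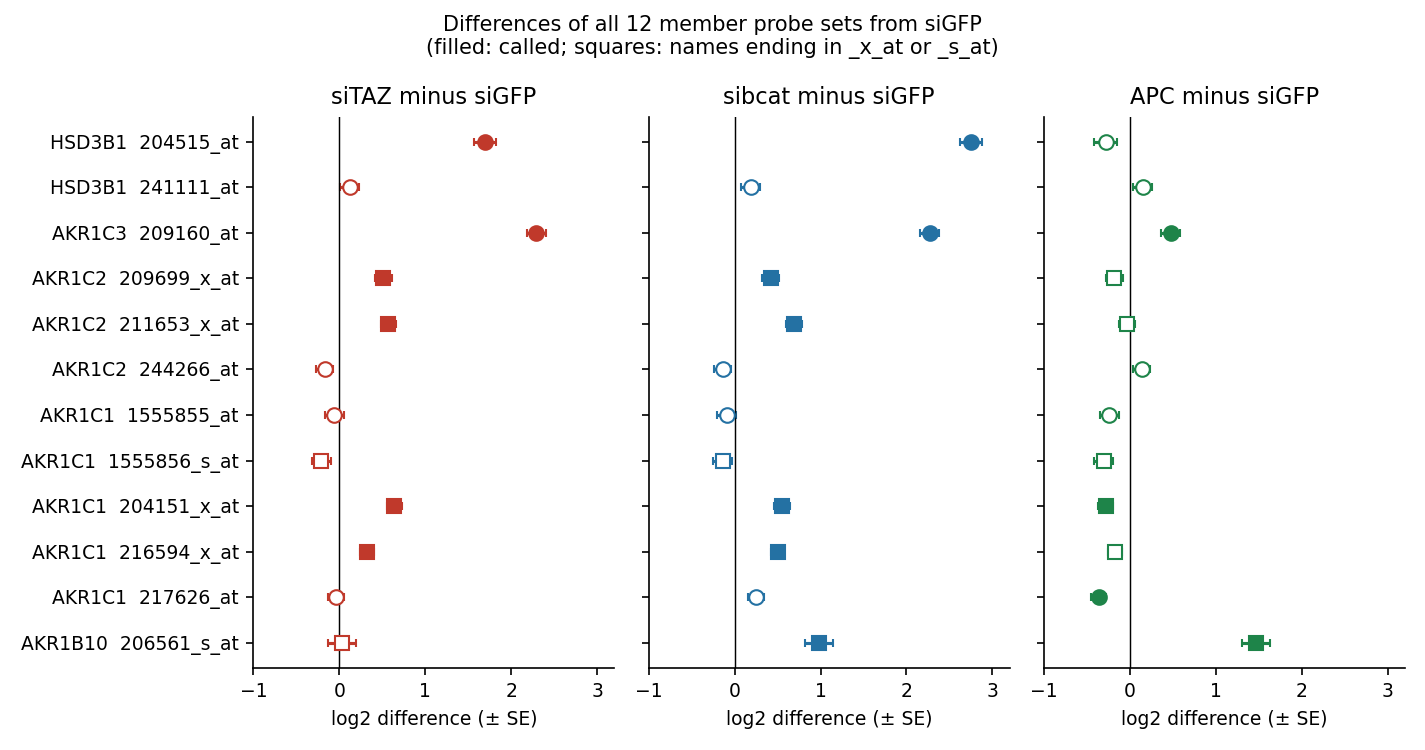
Log2 difference from siGFP with its SE for each of the 12 probe sets, in siTAZ, sibcat and APC cells; filled marks were called and squares have names ending in _x_at or _s_at. HSD3B1 204515_at (1.69 and 2.75) and AKR1C3 (2.29 and 2.27) stand out in siTAZ and sibcat cells, and AKR1B10 (1.47) in APC cells.

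Counted over the 12 probe sets, 6 were higher and 0 lower in siTAZ cells, where 20.3% of all 54613 probe sets were called, 10.5% higher and 9.78% lower. In sibcat cells 7 were higher and 0 lower, beside 25.6% called, 13.4% higher and 12.2% lower, over all probe sets. At an unadjusted p under 0.05 the lower counts were also 0 in both. In APC cells 2 were higher and 2 lower, beside 24% called, 12.7% higher and 11.3% lower. A call is a Benjamini-Hochberg adjusted p under 0.05 over all probe sets in the limma fit. The arrays did not overlap with siGFP for 6, 7 and 3 of the 12 in siTAZ, sibcat and APC cells, beside 21.7%, 25.6% and 24.1% of all probe sets. The genes were chosen on these contrasts, so nothing is read from these counts. Without the 6 probe sets named _x_at or _s_at, 2 of 6 were higher in siTAZ cells, 2 of 6 in sibcat cells, and 1 was higher and 1 lower in APC cells. The 3 comparisons share the siGFP arrays.

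Set directly against each other, siTAZ and sibcat cells differed in HSD3B1, AKR1B10 and 1 AKR1C1 probe set. HSD3B1 204515_at was lower in siTAZ than in sibcat cells by 2.08-fold (log2 difference -1.05, SE 0.13), and AKR1B10 by 1.94-fold (-0.95, SE 0.16). AKR1C3 did not differ beyond its spread (0.02, SE 0.11). AKR1C1 217626_at differed by -0.29 (SE 0.09) and was called lower, but the call was lost without siTAZ array D or any 1 of sibcat arrays A, B and C, where the difference ran from -0.28 to -0.26. In all, 0 of 12 probe sets were called higher (0 also at an unadjusted p under 0.05) and 3 lower in siTAZ cells, beside 26.7% of all probe sets called, 12.9% higher and 13.9% lower.

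APC cells were low in HSD3B1 and the AKR1C genes when set against sibcat cells. HSD3B1 204515_at was 8.13-fold lower in APC than in sibcat cells (-3.02, SE 0.13) and AKR1C3 3.45-fold lower (-1.78, SE 0.11). The 4 AKR1C1 and AKR1C2 probe sets named _x_at were lower by log2 differences between -0.83 and -0.60, and AKR1C1 217626_at by -0.60. AKR1B10 was higher in APC cells by 0.49 (SE 0.16), although the arrays overlapped, and this call was lost without any 1 of sibcat arrays A, C and D or APC arrays B and C (0.40 to 0.47). The dim AKR1C2 244266_at was called higher by 0.28, and not with the replicate letter as a block. It was also lost without any 1 of sibcat arrays B, C and D or APC arrays C and D (0.18 to 0.31). In all, 2 were called higher and 7 lower in APC cells, beside 31.6% called over all probe sets, 16% higher and 15.6% lower.

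Between siTAZ and APC cells the AKR1C genes and HSD3B1 were higher in siTAZ cells, and AKR1B10 was lower. The differences, siTAZ minus APC, were 1.97 for HSD3B1 204515_at (3.91-fold), 1.8 for AKR1C3 (3.49-fold), 0.91 for AKR1C1 204151_x_at (1.88-fold), 0.69 for AKR1C2 209699_x_at (1.61-fold) and -1.44 for AKR1B10 (2.72-fold lower). In all, 7 were called higher and 2 lower in siTAZ cells, beside 32.4% called over all probe sets, 15.5% higher and 16.9% lower. The second lower call was the dim AKR1C2 244266_at (-0.32), which was lost without siTAZ array B (-0.29), siTAZ array D (-0.30) or APC array D (-0.22).

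The genes whose pattern over the 16 arrays was most like that of a member were found by the root mean square difference after subtracting each gene's siGFP mean, among 13016 genes with a group mean of at least 5.10. For HSD3B1 the closest were SPARC, a matrix-associated glycoprotein (0.403), the chemokine gene CCL7 (0.428) and AKR1C3 (0.576). SPARC differed from siGFP by 1.26 in siTAZ, 3.27 in sibcat and -0.47 in APC cells, and CCL7 by 1.28, 3.29 and -0.17. For AKR1C3 the closest were ENPP5, of the nucleotide pyrophosphatase and phosphodiesterase family (0.572), HSD3B1 (0.576) and BHLHE41, a transcriptional repressor of the circadian clock (0.577). HSD3B1 and AKR1C3 were both chosen on these contrasts, so nothing is read from their likeness to each other. Both reached a group mean of 5.10 only in siTAZ and sibcat cells. ENPP5 differed by 1.78, 1.66 and -0.17 in siTAZ, sibcat and APC cells, and BHLHE41 by 1.89, 1.48 and 1.14.

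AKR1B10 lay closer to its neighbours in log2 units, but its own group means also spanned less. That span was 1.47, against 3.02 for HSD3B1 and 2.29 for AKR1C3, and the measure was not scaled by it. The neighbours of AKR1B10 were the secreted metalloprotease gene ADAMTS9 (0.211), the potassium-chloride cotransporter gene SLC12A7 (0.232) and SQOR, which encodes a mitochondrial enzyme that oxidises sulfide (0.251). Their differences in siTAZ, sibcat and APC cells were -0.01, 1.06 and 1.5 for ADAMTS9, -0.05, 1.07 and 1.46 for SLC12A7, and 0.17, 0.81 and 1.46 for SQOR. The group means of the brightest AKR1C1 and AKR1C2 probe sets spanned 0.91 and 0.68, less than the 1 required, so no like genes were named for them.

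**Figure D3:**
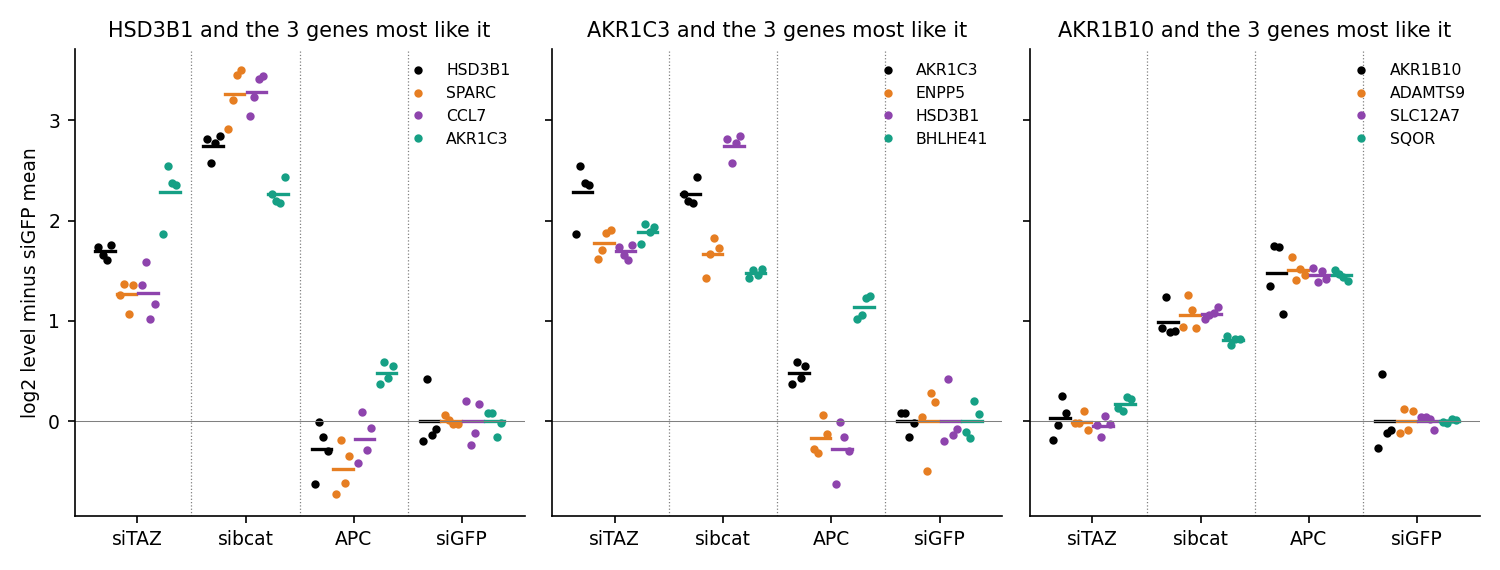
Log2 level minus the siGFP mean on each array (points), with bars at group means, for HSD3B1, AKR1C3 and AKR1B10 and the 3 genes most like each, in siTAZ, sibcat, APC and siGFP cells. The neighbours of AKR1B10 run close to it in all groups, while those of HSD3B1 and AKR1C3 differ from them in size. The group means of AKR1B10 also span less than those of HSD3B1 and AKR1C3.

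The other aldo-keto reductase genes were read as a list. For this and the following gene lists each gene was read by its brightest probe set, and 15.2% of all genes were called higher and 11.8% lower in siTAZ cells, 17.1% and 15.8% in sibcat cells, and 15% and 15.7% in APC cells. The median difference of all genes was 0.02 in siTAZ, 0.00 in sibcat and 0.01 in APC cells. Of 8 measured other aldo-keto reductase genes, 1 rose in siTAZ cells, 0 were called in sibcat cells (0 at an unadjusted p under 0.05 and 1 with the replicate letter as a block) and 2 fell in APC cells, with medians of 0.04, 0.01 and -0.21. KCNAB2, a potassium channel subunit of this fold, was higher in siTAZ cells by 0.47 (limma adjusted p = 0.00553). The aflatoxin aldehyde reductase genes AKR7A2 and AKR7A3 fell by 0.43 (limma adjusted p = 0.005) and 0.40 (0.00263) in APC cells. Their probe sets are named _s_at and _x_at, and a signal shared between these 2 genes was not tested. The next of the AKR1C genes, AKR1C4 of liver, stood at 2.76 to 2.81 in all groups and was not called, and neither was HSD3B2, at 2.90 to 3.04; both were named outside the rule for named genes.

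NRF2 target genes, to which AKR1B10 and the AKR1C genes are usually counted, went both ways. Of 26 measured, 8 rose and 4 fell in siTAZ cells, 10 rose and 4 fell in sibcat cells, and 5 rose and 6 fell in APC cells, with medians of 0.01, 0.15 and 0.03. With the replicate letter as a block 11 rose and 6 fell in sibcat cells, and 7 rose and 6 fell in APC cells. HMOX1, which degrades haem, was up by 1.05 in siTAZ (limma adjusted p = 6.78e-08) and 0.64 in sibcat cells (1.18e-05) and fell by 0.50 in APC cells (0.000181). PIR rose by 0.70 in siTAZ (1.49e-06) and 0.56 in sibcat cells (1.12e-05). The glutathione reductase gene GSR fell by 0.93 in siTAZ cells (0.000556). The drug exporter gene ABCC3 fell by 0.18 in siTAZ cells (0.0325) and rose by 1.38 in sibcat (7.4e-12) and 0.41 in APC cells (2.1e-05). The cystine transporter gene SLC7A11 rose by 0.58 in siTAZ cells (5.84e-06) and fell by 1.34 in sibcat (1.24e-10) and 0.65 in APC cells (1.06e-06). GPX2, a glutathione peroxidase of the gut, rose by 0.52 in siTAZ (0.0026) and 2.17 in APC cells (1.11e-10) and fell by 0.93 in sibcat cells (5.88e-06), where its mean of 4.62 lay below 5.10 and the size is uncertain.

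The genes that regulate NRF2 went both ways as well. Of 11 measured, 6 rose and 2 fell in siTAZ cells, 2 rose and 1 fell in sibcat cells, and 2 rose and 4 fell in APC cells, with medians of 0.19, 0.01 and -0.09. With the replicate letter as a block 2 rose and 2 fell in sibcat cells, and without siGFP array B 1 rose and 2 fell. NFE2L2, the gene of NRF2, differed by 0.19 in siTAZ (limma adjusted p = 0.0891), -0.28 in sibcat (0.00947) and 0.13 in APC cells (0.227), and only the sibcat fall was called. Without siGFP array B, the lowest of its group for NFE2L2, the differences were 0.10, -0.37 and 0.04, with the same calls. KEAP1 differed by -0.09 (0.316) in siTAZ and 0.01 (0.94) in sibcat cells and rose by 0.34 in APC cells (0.000211). BACH1, a repressor at the same DNA elements, fell by 0.90 in siTAZ cells (1.39e-08) and by 0.68 in APC cells (1.91e-07). NFE2L3 and MAFF differed by -1.02 (6.31e-09) and -0.73 (1.13e-08) in APC cells. In siTAZ cells they differed by 0.24 (0.0245) and 0.21 (0.00768), and neither was called in sibcat cells. SQSTM1, whose protein binds KEAP1, rose by 0.79 in siTAZ (1.16e-08) and 0.35 in sibcat cells (7.77e-05) and fell by 0.18 in APC cells (0.0174).

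Genes of steroid synthesis and metabolism were called in both directions in each comparison with siGFP. Of 31 measured, 5 rose and 5 fell in siTAZ cells, 3 rose and 3 fell in sibcat cells, and 3 rose and 4 fell in APC cells, with medians of 0.03, 0.06 and 0.02. With the replicate letter as a block 3 rose and 4 fell in sibcat cells, and 6 rose and 5 fell in APC cells. HSD11B1, which regenerates cortisol from cortisone, averaged 7.02 in siTAZ, 7.46 in sibcat, 4.33 in APC and 6.51 in siGFP cells. It rose by 0.52 in siTAZ (limma adjusted p = 0.00552) and 0.95 in sibcat cells (1.32e-05), and fell by 2.18 in APC cells (4.02e-10). The APC mean of HSD11B1 lay below 5.10, so the size of that fall is uncertain. SRD5A1, which makes dihydrotestosterone from testosterone, fell by 0.74 in siTAZ cells (3.85e-05). HSD17B4, a peroxisomal enzyme, fell by 0.30 in siTAZ cells (0.000284) and rose by 0.57 in sibcat (1.5e-07) and 0.27 in APC cells (0.000551). HSD17B7 fell by 0.31 in siTAZ (0.00222), 0.35 in sibcat (0.000579) and 0.53 in APC cells (8.57e-06).

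Steroid receptors and glucocorticoid response genes were read because the medium held hydrocortisone. Of 12 measured, 1 rose and 4 fell in siTAZ cells, 4 rose and 1 fell in sibcat cells, and 4 rose and 2 fell in APC cells, with medians of -0.06, 0.08 and 0.14. In siTAZ cells 3 rose and 4 fell with the replicate letter as a block. NR3C1, the glucocorticoid receptor gene, fell by 0.67 in siTAZ cells (limma adjusted p = 4.96e-07) and rose by 0.38 in sibcat (0.000136) and 1.58 in APC cells (2.81e-12). Of the response genes, SGK1, a kinase, rose by 0.87 in siTAZ (3.37e-07), 0.68 in sibcat (3.43e-06) and 2.06 in APC cells (1.78e-12). TSC22D3 fell by 0.26 in siTAZ cells (0.00109) and rose by 1.65 in sibcat (5.64e-13) and 0.84 in APC cells (1.22e-09). FKBP5 fell by 0.56 in siTAZ cells (1.88e-07) and rose by 1.28 in APC cells (1.69e-12). CEBPD fell by 1.36 in sibcat (6.02e-11) and 1.52 in APC cells (7.88e-12). FKBP5 was not called in sibcat cells (-0.07). DUSP1, another response gene, fell in siTAZ (-0.33, limma adjusted p = 0.000979) and APC cells (-0.35, 0.000401). KLF9 (-0.15) and ZBTB16 were not called in APC cells. These last 3 genes were named outside the rule for named genes.

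Retinoid metabolism genes, the pathway of the AKR1B10 substrate retinal, were called in part. Of 23 measured, 5 rose and 2 fell in siTAZ cells, 7 rose and 3 fell in sibcat cells, and 7 rose and 4 fell in APC cells, with medians of 0.06, 0.12 and 0.10. In siTAZ cells 1 in place of 2 fell without siGFP array B. With the replicate letter as a block 6 rose and 2 fell in siTAZ cells, and 7 rose and 5 fell in APC cells. DHRS3, which like AKR1B10 reduces retinal to retinol, rose by 1.20 in sibcat (limma adjusted p = 1.6e-10) and 1.79 in APC cells (4.51e-13). ALDH1A3, which oxidises retinal to retinoic acid, rose by 0.23 in siTAZ (0.0484), 0.84 in sibcat (2.72e-07) and 1.30 in APC cells (8.92e-10). STRA6, a retinol transporter, rose by 0.57 in siTAZ (9.9e-06) and 0.25 in sibcat cells (0.0138). RDH5 rose by 0.51 in siTAZ (0.000808) and 0.42 in sibcat cells (0.00268) and fell by 0.96 in APC cells (6.21e-07). RDH10 fell by 0.41 in siTAZ cells (0.0245) and rose by 0.44 in sibcat (0.0137) and 0.76 in APC cells (0.000158). RDH12 fell by 0.48 in sibcat (0.0409) and 0.61 in APC cells (0.00979). The APC mean of RDH5 and all means of RDH12 lay below 5.10, so these sizes are uncertain.

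Prostaglandin genes, the pathway in which AKR1C3 is a synthase, were mostly not called in siTAZ cells. Of 24 measured, 1 rose and 1 fell in siTAZ cells, 7 rose and 2 fell in sibcat cells, and 6 rose and 4 fell in APC cells, with medians of 0.02, 0.06 and 0.10. In siTAZ cells 2 in place of 1 rose without siGFP array B. With the replicate letter as a block 1 rose and 2 fell in siTAZ cells, and 7 rose and 3 fell in sibcat cells. PTGES, a prostaglandin E synthase, rose by 0.39 in siTAZ (limma adjusted p = 0.000368), 0.88 in sibcat (2.57e-08) and 1.24 in APC cells (2.64e-10). The receptor gene PTGER2 fell by 0.58 in siTAZ (0.000481) and 0.36 in APC cells (0.017) and rose by 1.30 in sibcat cells (3.81e-08). In APC cells the phospholipase gene PLA2G4A rose by 2.55 (2.64e-13), the prostaglandin transporter gene SLCO2A1 by 2.19 (5.45e-09) and the cyclooxygenase gene PTGS2 by 1.77 (6.05e-07). The largest falls there were -1.23 for PTGR1 (6.1e-11) and -1.07 for HPGD (5.75e-10), both named outside the rule for named genes. In sibcat cells PLA2G4A rose by 0.51 (0.000169) and SLCO2A1 by 0.69 (0.00225). PTGS2 lay below 5.10 in every group, at 4.38 in APC and 2.61 in siGFP cells. PLA2G4A lay below 5.10 in siGFP (2.98) and sibcat cells (3.49), so the sizes for both genes are uncertain.

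Among genes of the polyol pathway and aldehyde detoxification, calls higher outnumbered calls lower in siTAZ and sibcat cells, but not in APC cells. AKR1B1, the aldose reductase of this pathway, and SORD of the list had no probe set of their own and were not read. Of 17 measured, 6 rose and 1 fell in siTAZ cells, 5 rose and 1 fell in sibcat cells, and 4 rose and 6 fell in APC cells, with medians of 0.13, 0.02 and -0.02. With the replicate letter as a block 8 rose and 2 fell in siTAZ cells, and 5 rose and 6 fell in APC cells. GLO1, which clears methylglyoxal, averaged 9.23 in siTAZ and 11.27 in siGFP cells and fell by 2.04 (limma adjusted p = 5.65e-14), and it fell by 0.38 in sibcat cells (2.23e-05). GSTA4, which conjugates lipid aldehydes, rose by 0.62 in siTAZ (8.8e-06), 1.03 in sibcat (1.2e-08) and 0.50 in APC cells (6.73e-05). ALDH3A2, which oxidises fatty aldehydes, rose by 0.80 in sibcat (0.0068) and 0.67 in APC cells (0.0232). HAGH, the enzyme after GLO1 in the same route, fell by 0.47 in APC cells (7.16e-05).

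**Figure D4:**
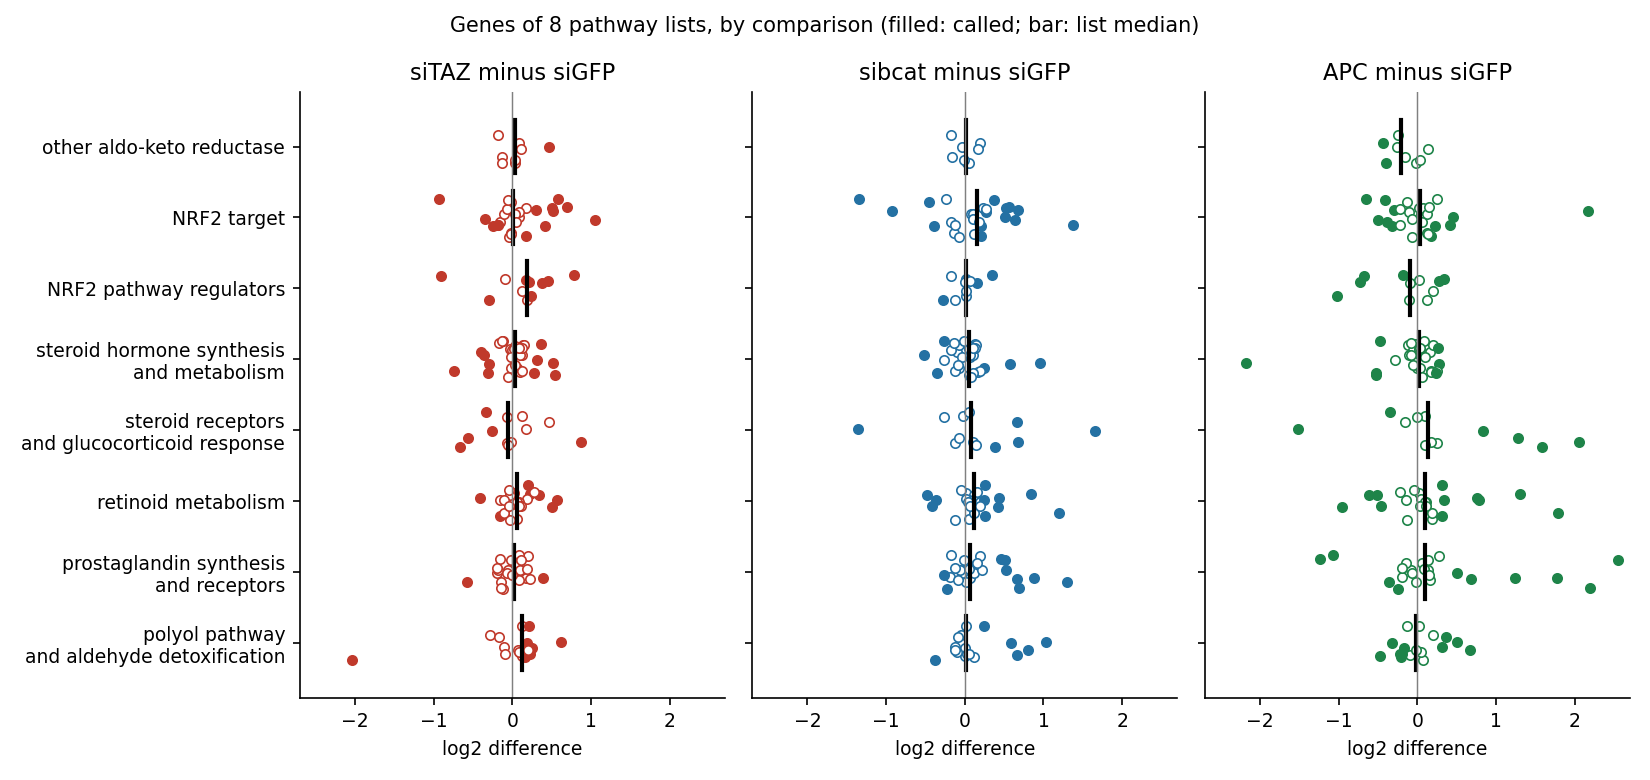
Log2 difference from siGFP of each gene (points) in 8 pathway lists, in siTAZ, sibcat and APC cells; filled points were called and black bars are list medians. The list medians lie between -0.21 and 0.19, while single genes such as GLO1 (-2.04 in siTAZ), HSD11B1 (-2.18 in APC, where its mean lies below 5.10) and PLA2G4A (2.55 in APC) lie far from them.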

How the data were processed

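Each array gave 1 value per probe set. The authors deposited log2 expression levels made with RMA, per the submitters' processing notes, which give no version; that the logs are to base 2 follows from the range of the values (1.8 to 14.56). RMA equalises the arrays' distributions, which hides any shift in the whole RNA content of a cell. An array has no count depth; the number of arrays limits the precision.

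After leaving out 62 AFFX control probe sets, all 54613 others entered 1 fit in limma 3.58.1 (R 4.3.3; lmFit, eBayes) over 16 arrays and 4 groups, without a block. A call is a Benjamini-Hochberg adjusted p under 0.05 over all of them in that comparison. Of these probe sets 41091 had 1 gene in the annotation, 1801 several and 11721 none. The script was tested on simulated data, and exact permutation tests used scipy 1.17.1.

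Named genes were all probe sets of the members, the targeted genes, NFE2L2, KEAP1 and NR3C1, up to 3 called genes with the largest difference per list and comparison, and the 3 genes most like a member whose group means span at least 1. Not every list gene so selected is described above. The members and lists were chosen with earlier results of these data known. Alternatives left out each array or changed the block, filter, probe sets, scaling, groups fitted, prior or quality covariate.

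Same-letter arrays of different groups deviated together in all 24 combinations of a letter and a pair of groups (r 0.115 to 0.399), so the letters may pair the arrays. The main fit and the permutation tests did not use such a pairing, and the printed p-values are unpaired. The fit with the replicate letter as a block is given only as an alternative. The labels call the arrays biological replicates and do not mention separate cultures. The p-values therefore rest on the spread between arrays alone, which may be technical.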

Additional observations from a re-analysis of the deposited data

Results flagged for a closer look

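In groups of 4 arrays, 1 array stood far from the other 3 in 11 of 240 groups examined (60 probe sets), including 4 of 48 for the members. By chance about 1 in 20 such groups would. Among the members, AKR1B10 206561_s_at in sibcat array B was 5.26 (the others 4.91 to 4.95), AKR1C1 1555856_s_at in siGFP array D was 5.0 (4.86 to 4.87), AKR1C1 204151_x_at in siTAZ array C was 7.45 (7.30 to 7.31) and AKR1C2 244266_at in APC array D was 3.65 (3.24 to 3.28). Among the list genes, GPX2 in APC array A was 7.53 (7.76 to 7.80), KHK in sibcat array C was 7.65 (7.75 to 7.76) and MAFG in sibcat array A was 8.95 (8.80 to 8.82). NFE2L2 in siGFP array B was 10.77 (11.12 to 11.17) and NFE2L3 in sibcat array C was 11.15 (10.96 to 10.99). RDH10 in siTAZ array B was 6.11 (6.35 to 6.39), and RDH5 in APC array C was 4.60 (4.30 to 4.35).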

How the results depend on the processing

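No called member value changed its sign under any alternative. Of 1266 member values under alternatives, 1204 kept their side of the threshold, 45 lost the call and 17 gained it. Of 1488 values of named list genes, 1431 kept it, 52 lost it and 5 gained it. Without _x_at and _s_at probe sets fewer members were tested, and 2 were called in siTAZ against siGFP (6 with all), 2 in sibcat against siGFP (7), 2 in APC against siGFP (4), 3 in APC against sibcat (9) and 4 in siTAZ against APC (9). With 1 probe set per gene, 5 of 5 genes were called in APC against sibcat and 5 of 5 in siTAZ against APC. Replicates A and B alone, with fewer arrays, left 1 call in APC against siGFP. With the replicate block the calls were 6 in siTAZ, 7 in sibcat and 5 in APC against siGFP, 3 in siTAZ against sibcat, 8 in APC against sibcat and 9 in siTAZ against APC. The block changed no member call beyond the 2 given above. Leaving out 1 array gave 6 calls in siTAZ, 7 to 8 in sibcat and 3 to 5 in APC against siGFP, 2 to 3 in siTAZ against sibcat, 7 to 9 in APC against sibcat and 8 to 9 in siTAZ against APC. Levels below 5.10 lie near background, which limits what can be read from HSD3B1 and AKR1C3 in APC and siGFP cells and from AKR1B10.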
